A study of Mus musculus with 6 samples.

Results

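The genes described here are the nuclear-encoded genes of oxidative phosphorylation, 84 of the 23038 genes listed for NSC-34 cells. They were chosen by name alone, as the genes whose symbols carry the usual mouse stems for the respiratory chain and the ATP synthase (Nduf, Sdh, Uqcr, Cyc1, Cycs, Cox4 to Cox8 and Atp5). By the roles of their products they divided into 35 genes of complex I, 4 of complex II, 9 of complex III, 18 of complex IV, 1 for cytochrome c and 17 named for the ATP synthase. NSC-34 is a mouse motor neuron-like line, a hybrid of neuroblastoma cells and spinal cord motor neurons. Poly-A mRNA was sequenced from 3 cultures transfected with control siRNA (siNC) and 3 transfected with siRNA for the Qk gene (siQk), the gene of the RNA-binding protein Quaking. The question was which mRNA levels differ once Qk is depleted. The labels state that 3 different siRNAs for Qk were used and do not say which library received which, so siRNA and replicate cannot be told apart within siQk. All 6 libraries come from 1 line, the RNA is from bulk cultures, and fewer cells of a kind and less RNA per cell cannot be told apart.

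Oxidative phosphorylation takes electrons from NADH, through complex I, and from succinate, through complex II, and passes them by ubiquinone to complex III, by cytochrome c to complex IV and then to oxygen. Complexes I, III and IV pump protons across the inner mitochondrial membrane, and the ATP synthase makes ATP as the protons flow back. Most subunits are encoded in the nucleus and imported into mitochondria, where they join a small set encoded by mitochondrial DNA. Motor neurons, with their long axons, depend heavily on this supply of ATP. None of the mitochondrially encoded subunits was matched in the files, so the values cover the nuclear side only.

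Library totals ran from 43000503 to 53565950 counts, and the 84 genes together took between 1.97% and 2.22% of a library's counts. Qk had 9.67, 8.18 and 14.9 RPKM (counts scaled by exon length and library total) in siNC replicates 1 to 3. In siQk replicates 1 to 3 it had 1.39, 1.71 and 1.10 RPKM. The siRNA target was therefore lower in every siQk library than in any siNC library, with a log2 fold change of -2.997 ± 0.34 (SE, n = 3 per group) and an adjusted p of 0.0149 by the quasi-likelihood test of edgeR. Of the motor neuron markers examined, 3 of 7 had a mean over the 6 libraries above 1 RPKM (Isl1, Isl2 and Slc18a3), while the means of Chat, Mnx1 and Slc5a7 were at or under 0.1 RPKM. The summed level of these 7 markers was 10.0 to 11.5 RPKM in siNC and 14.2 to 16.4 RPKM in siQk. The gap came from Isl1, with 4.75 to 4.83 RPKM in siNC and 7.80 to 9.63 RPKM in siQk, while the other 6 markers summed to 5.25 to 6.70 RPKM in siNC and 5.91 to 6.99 RPKM in siQk, with overlap. General neuron markers had means above 1 RPKM for 6 of 7 genes, with a summed level of 252 to 525 RPKM in siNC and 385 to 526 RPKM in siQk. The means of all 4 astrocyte and all 4 microglia markers were at or under 0.1 RPKM, and of 5 fibroblast markers only Pdgfra had a mean above 1 RPKM. The part of these marker differences in the values below was not tested.

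Several members have coding sequences that recur, letter for letter, elsewhere in the mouse transcriptome, and their values have to be read with this in view. Every stretch of 75 bases, the read length, in the coding sequence of a member was searched for in the transcripts of other genes. These were the genes of the GENCODE mouse release M21 annotation that do not overlap the member's own position. For Cycs, Atp5l, Atp5g2 and Ndufb4, 100% of the coding windows were also present in another gene. Over whole transcripts, untranslated parts included, the shared windows made up 26.1% for Cycs, 63.4% for Atp5l, 35.8% for Atp5g2 and 35.2% for Ndufb4. Over whole transcripts, 23 of the 81 members tested (28.4%) had any shared window, against 18.2% of the 12076 genes tested that could be searched. The stretches below are the coding window found in the most other genes, in capitals, with up to 15 flanking bases in lower case, and they are shown because a read that falls inside the capitals has the same letters in each of those genes.
Cycs: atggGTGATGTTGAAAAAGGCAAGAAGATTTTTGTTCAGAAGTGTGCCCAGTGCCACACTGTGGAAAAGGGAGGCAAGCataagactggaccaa
Atp5l: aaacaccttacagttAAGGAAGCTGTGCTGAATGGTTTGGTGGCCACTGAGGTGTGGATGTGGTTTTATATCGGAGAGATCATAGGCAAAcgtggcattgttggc
Atp5g2: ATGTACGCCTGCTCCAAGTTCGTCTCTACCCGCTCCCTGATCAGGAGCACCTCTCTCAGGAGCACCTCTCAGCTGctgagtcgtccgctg
Ndufb4: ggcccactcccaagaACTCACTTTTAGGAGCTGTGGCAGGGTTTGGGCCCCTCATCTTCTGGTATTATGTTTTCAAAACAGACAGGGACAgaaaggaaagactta
The Cycs window, on chromosome 6, covers coding bases 5 to 79 counted from the first base of the start codon, and was present in 3 other genes, 2 of them annotated pseudogenes and 1 the annotated protein-coding gene Gm10053. The Atp5l window, on chromosome 9, covers coding bases 211 to 285 and was present in 8 other genes, all of them pseudogenes. The Atp5g2 window, on chromosome 15, covers coding bases 1 to 75, and the Ndufb4 window, on chromosome 16, covers coding bases 257 to 331. Each of these was present in 2 other genes, both pseudogenes.

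Promoters of the members differ in the motifs they hold. RefSeq promoter sequences (GRCm38.p6, 250 bases before to 50 after the annotated start) were matched to 69 of the 84 genes, as 75 promoters. Each motif was searched on both strands. GCGCATGC, the greater part of the palindromic site of nuclear respiratory factor 1 (NRF1), was found in 11 of the 75 promoters (14.7%), against 5.18% of the 12910 promoters of genes tested and 2.71% of all 32851 promoters in the table. In a full palindrome the matches on the strands overlap. The YY1 core AAGATGGC was found in 16.0% of member promoters, against 4.31% of those of genes tested and 2.75% of all promoters. The ETS core CCGGAAG was found in 21.3%, against 17.2% and 8.86%. The TATA box TATAAA was found in 10.7%, above the 6.71% of genes tested and below the 13.6% of all promoters. CCAAT was found in 44.0%, against 38.0% and 37.4%. These are letter matches and were not examined for binding. The stretches below run from 250 to 51 bases before the start site, with NRF1 matches in capitals. Cox6a1 and Ndufa11 hold the full palindrome in this stretch, and Atp5b, the member with the highest level, holds no match.
Cox6a1, chr5:115349009-115349208, minus strand: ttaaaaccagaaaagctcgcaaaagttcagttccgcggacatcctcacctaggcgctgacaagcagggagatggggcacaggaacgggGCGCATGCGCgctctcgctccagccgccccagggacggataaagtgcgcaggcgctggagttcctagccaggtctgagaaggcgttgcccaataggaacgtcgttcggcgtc
Ndufa11, chr17:56717512-56717711, plus strand: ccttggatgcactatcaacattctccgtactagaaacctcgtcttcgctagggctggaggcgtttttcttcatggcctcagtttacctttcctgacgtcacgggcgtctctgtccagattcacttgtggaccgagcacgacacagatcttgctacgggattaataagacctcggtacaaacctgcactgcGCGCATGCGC
Atp5b, chr10:128083057-128083256, plus strand: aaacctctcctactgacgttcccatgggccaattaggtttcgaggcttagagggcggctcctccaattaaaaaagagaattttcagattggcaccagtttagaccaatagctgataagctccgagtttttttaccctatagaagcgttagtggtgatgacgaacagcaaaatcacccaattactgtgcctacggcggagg
The 11 matched genes with the NRF1 letters had a median level of 190.5 RPKM, and the 58 without them 170.3 RPKM. Among the 11 were Cycs, Atp5g2 and Atp5l, which are described with their shared coding sequence, and Sdhb and Uqcrc1.

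As a group the oxidative phosphorylation genes were among the most abundant transcripts of these cells. The median member had 189 RPKM over the 6 libraries, against 1.20 RPKM for the 23038 genes listed. A level above 100 RPKM was reached by 57 of 84 members (67.9%) and by 3.27% of all genes. The members' exon models were short, with a median of 655 bases against 2400 bases for all genes, and RPKM, which divides by this length, is the scale used to compare genes here. The members together took 5.37% to 6.32% of a library's summed RPKM. Complex IV had the highest median level, 335 RPKM, followed by the ATP synthase at 318 RPKM, complex III at 193 RPKM, complex I at 162 RPKM and complex II at 161 RPKM. Levels within each complex spread far wider than these medians lie apart.

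**Figure D1:**
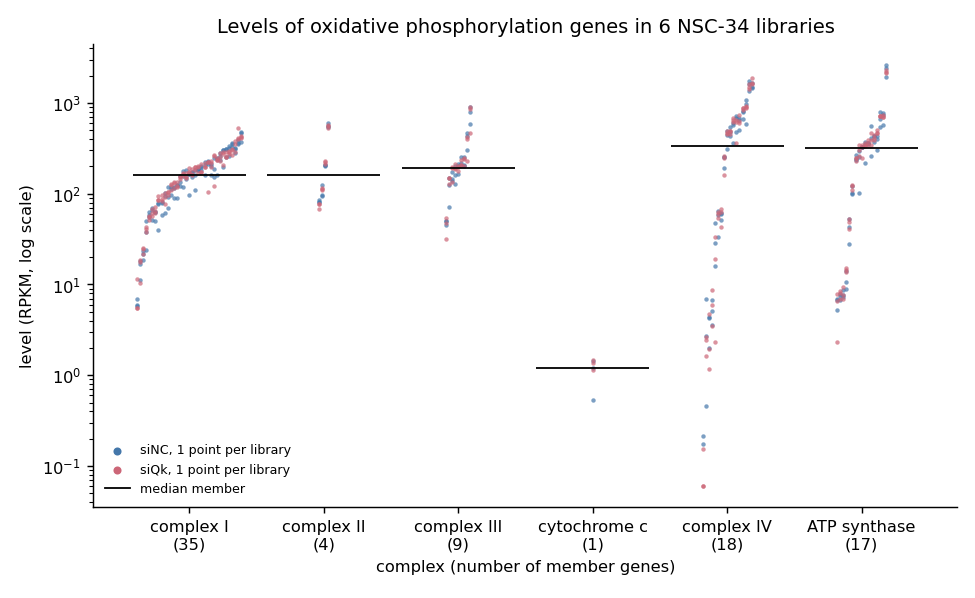
Level in RPKM (log axis) of each member gene in each of the 6 libraries, grouped by complex and ordered by level within it, with siNC libraries in blue, siQk libraries in red and the median member as a black bar (values of 0 cannot be drawn). The colours overlap for most genes, and the levels within complex IV run from listed at 0 to over 1000 RPKM.

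Complex I is the entry point for electrons from NADH and has the most genes. Its members ran from 6.90 RPKM for Ndufs5 to 430 RPKM for Ndufb9, an accessory subunit of the distal membrane arm. Ndufb9 had 467, 479 and 372 RPKM in siNC replicates 1 to 3 and 428, 410 and 425 RPKM in siQk replicates 1 to 3, with overlapping groups. Ndufs5 was counted over an exon model of only 74 bases and did not pass the filter on low counts. The lowest member tested was Ndufa11, an accessory subunit of the membrane arm, with 18.2, 16.8 and 11.1 RPKM in siNC and 17.7, 10.5 and 18.6 RPKM in siQk, again with overlapping groups. Between them lay the core subunits that carry the flavin and the iron-sulphur clusters. Ndufv2, in the module that oxidises NADH, had a mean of 203 RPKM. Ndufv1, which binds the flavin, had a mean of 61.96 RPKM, and Ndufs1, the largest core subunit, 39.0 RPKM.

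Complex II, succinate dehydrogenase, has its 4 subunits wholly encoded in the nucleus, and their levels differed widely. Sdhb, the iron-sulphur subunit, was the highest, with 608, 563 and 540 RPKM in siNC and 580, 527 and 554 RPKM in siQk. Sdhc, a membrane anchor, had 206, 206 and 201 RPKM in siNC and 213, 225 and 227 RPKM in siQk, so the siQk libraries lay above the siNC libraries by a small margin. Sdhd, the other anchor, had 96.3, 124 and 94.8 RPKM in siNC and 114, 111 and 117 RPKM in siQk. Sdha, the flavoprotein that oxidises succinate, was the lowest, with 80.4, 81.2 and 86.1 RPKM in siNC and 77.2, 67.2 and 77.0 RPKM in siQk. The siQk values of Sdha lay below all siNC values, and the order of the 4 genes, Sdhb, Sdhc, Sdhd and Sdha, was the same in each library.

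In complex III the highest member was Uqcrq, a small subunit, with 905, 793 and 592 RPKM in siNC and 864, 469 and 895 RPKM in siQk. The lowest was Uqcrfs1, the Rieske iron-sulphur protein of the catalytic core, with 49.5, 49.9 and 45.7 RPKM in siNC and 48.1, 31.8 and 53.7 RPKM in siQk. In both genes siQk replicate 2 was the lowest of the 6 libraries. Cyc1, the haem-carrying cytochrome c1, had a mean of 193 RPKM. Uqcrc1 and Uqcrc2, the large core proteins, had means of 221 and 227 RPKM.

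Cycs, the electron carrier between complexes III and IV, was listed far below the complexes it connects. It had 1.19, 1.44 and 0.540 RPKM in siNC and 1.37, 1.14 and 1.48 RPKM in siQk. siNC replicate 3 had the lowest value, and the groups overlapped. All of its coding windows are shared with other genes, as printed above, but 26.1% of the windows of its whole transcript are, and the level is counted over an exon model of 3059 bases.

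In complex IV the highest member was Ndufa4, a subunit once assigned to complex I, with 1502, 1681 and 1478 RPKM in siNC and 1629, 1655 and 1869 RPKM in siQk. Cox4i1, the ubiquitous form of subunit 4, followed with 1754, 1633 and 1349 RPKM in siNC and 1428, 1605 and 1508 RPKM in siQk. The groups overlapped for both genes. Several subunits of complex IV exist as a ubiquitous form and a form restricted to tissues such as heart, skeletal muscle, lung or testis, and in NSC-34 cells the ubiquitous form was the higher of each pair in every library.

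The share of the restricted form differed between pairs. Cox7b2, a form of subunit 7b best known from testis, made up 19.9% ± 1.20 (SD, n = 3) of the summed RPKM of Cox7b and Cox7b2 in siNC and 20.7% ± 1.19 (SD, n = 3) in siQk. It was the highest of these shares, with 19.2% to 21.7% over the 6 libraries. Cox6a2, the muscle and heart form of subunit 6a, took 4.22%, 1.61% and 4.67% of its pair with Cox6a1 in siNC and 3.63%, 0.250% and 2.04% in siQk. siQk replicate 2 stood lowest, and the groups overlapped. Cox7a1, the muscle form of subunit 7a, took 0.713% to 1.73% of its pair with Cox7a2. Cox6b2, a form of subunit 6b best known from testis, took 0.124% to 1.12% of its pair with Cox6b1. Cox4i2, the form of subunit 4 best known from lung, took 0.0723% to 0.314% of its pair with Cox4i1. Cox8b, the muscle form of subunit 8, was at most 0.0424% of its pair with Cox8a, and Cox8c was listed at 0 in all 6 libraries. None of the shares separated siNC from siQk.

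**Figure D2:**
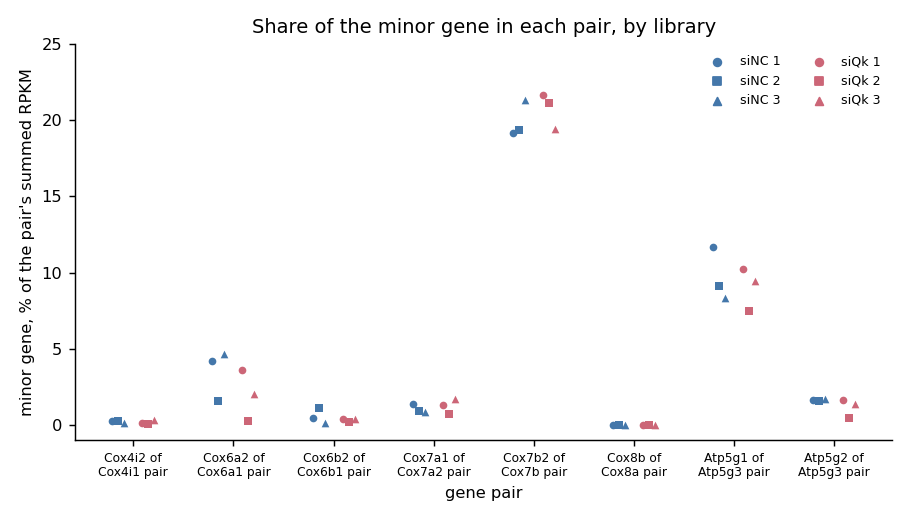
Share of the less abundant gene in the summed RPKM of its pair (percent, linear axis from 0 to 25), with 1 marker per library and siNC in blue and siQk in red. Cox7b2 holds 19.2% to 21.7% of its pair in every library, Atp5g1 7.51% to 11.7%, and the other genes stay under 5%.

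The highest of all members was Atp5b, the catalytic beta subunit of the ATP synthase, with 2428, 1938 and 2624 RPKM in siNC and 2133, 2223 and 2296 RPKM in siQk. Its partner in the same hexamer, the alpha subunit gene Atp5a1, had a mean of 415 RPKM. The c subunit, whose ring turns as protons pass, is encoded by 3 genes that give the same mature protein. Atp5g3 was the highest of them, with 402, 431 and 305 RPKM in siNC and 464, 502 and 466 RPKM in siQk. Atp5g1 had 53.3, 43.3 and 27.8 RPKM in siNC and 53.2, 40.7 and 48.7 RPKM in siQk. Atp5g2 had 6.71, 6.92 and 5.25 RPKM in siNC and 7.90, 2.34 and 6.61 RPKM in siQk. The order Atp5g3, Atp5g1 and Atp5g2 held in every library. Windows shared with other genes made up 0%, 92.8% and 100% of their coding windows in that order. Over whole transcripts, untranslated parts included, the shared windows made up 0%, 7.29% and 35.8%. Atp5s and Atp5sl, named for the ATP synthase but not core subunits of it, had means of 7.93 and 7.61 RPKM.

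The listed level of a member tended to be lower where more of its coding sequence recurs elsewhere. The 4 genes with 100% of coding windows shared, Cycs, Atp5g2, Atp5l and Ndufb4, had means of 1.19, 5.95, 12.9 and 22.6 RPKM. The 6 genes with at least 50% but not all windows shared had 6.90 to 363 RPKM, with a median of 110 RPKM. The 14 genes with less than 50% shared had a median of 163 RPKM. The 53 genes with none shared, leaving out the 7 tissue-restricted paralogs of complex IV, had a median of 227 RPKM. With those paralogs the 60 genes with none shared had a median of 203 RPKM, 18 of them under 100 RPKM and 7 under 10 RPKM. Over the 77 genes without those paralogs the correlation of the shared percentage with log10 RPKM was -0.52 (Pearson), and with rank it was -0.28 (Spearman). It is a description across genes that share the same 6 libraries. How the authors' aligner and counter treated reads with more than 1 matching place is not given in the sources used here. The level is counted over whole exon models, of which the coding sequence is a part, and the part of this sharing in the levels was not tested. Members with any shared coding window had a median log2 fold change between the groups of 0.13 (23 tested) and those without, leaving out the same paralogs, -0.0053 (53 tested). These medians were not computed without siNC replicate 3, in which short genes stood low, as described below. The part of exon length and of that library in their difference was not tested.

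**Figure D3:**
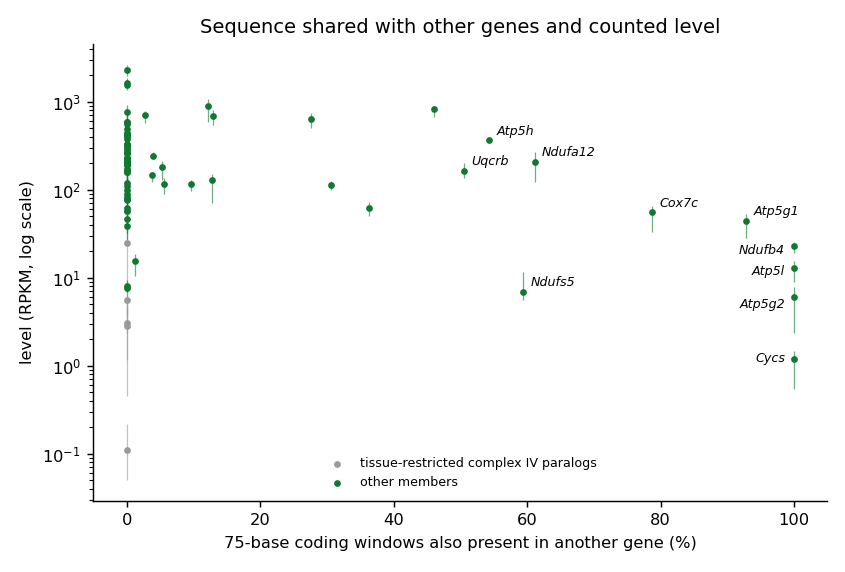
Mean level over the 6 libraries (RPKM, log axis; vertical lines span the lowest to the highest library, cut at 0.05 RPKM) against the percentage of 75-base coding windows also present in another gene, with 1 point per member and the tissue-restricted complex IV paralogs in grey (Cox8c, at 0, is not drawn). The 4 genes at 100% lie between 1.19 and 22.6 RPKM, while genes at 0% reach 2274 RPKM.

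Knockdown of Qk left no member past the threshold. A call required p under 0.01 together with an adjusted p under 0.1 in the quasi-likelihood test of edgeR. Of the 12665 genes tested, 1 was called (0.0079%), and that gene was Qk. Among the 81 members tested, 0 were called higher and 0 lower. At an unadjusted p under 0.05, which 2.89% of all genes tested reached, there were 0 members by this test, and 0 by DESeq2 or by the exact and likelihood-ratio tests of edgeR. The smallest p of a member was 0.0735 (edgeR, for Atp5g3), and the adjusted p of that gene was 0.9996. Cox8b, Cox8c and Ndufs5 were too low to be tested. In simulated data with the spread of these libraries, the test recovered 95.8% of genes changed by a log2 value of 2 and 62% of those changed by 1. These shares are over genes drawn from all those tested, and the share for members was not tested. The simulation changed 100 genes by 1 and 95 by 2 at once, held no trend on exon length, and gave 165 calls, 12 of them false. With only 1 gene called in the real data, an adjusted p under 0.1 takes a smaller p. The shares therefore do not carry over to a few changed members.

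The median log2 fold change of the 81 members was 0.036, against 0.0034 for all genes tested, with 47 members above 0 (58.0%, against 50.8% of all genes tested) and 34 below. By complex the median log2 fold change was 0.083 for complex I (22 of 34 above 0), 0.012 for complex II (2 of 4), -0.025 for complex III (4 of 9), 0.010 for complex IV (8 of 16) and 0.012 for the ATP synthase (10 of 17). Within complex I the median was 0.13 for the distal membrane arm, where 9 of 10 genes were above 0, 0.019 for the proximal membrane arm, 0.048 for the NADH-oxidising module and -0.095 for the ubiquinone-reducing module. The 7 core subunits of complex I had a median of -0.12, with 5 of 7 below 0. These counts moved with siNC replicate 3. Without it, 36 of 81 members were above 0 (44.4%, against 50.8% of all genes), with 16 of 34 in complex I, 5 of 16 in complex IV and 8 of 17 in the ATP synthase. The median log2 fold change then was -0.0082 for complex I, -0.016 for complex II, -0.10 for complex III, -0.081 for complex IV and -0.024 for the ATP synthase. Within complex I the distal membrane arm had 5 of 10 above 0 and a median of 0.0068, the proximal membrane arm a median of -0.013, the NADH-oxidising module -0.044 and the ubiquinone-reducing module -0.062, and the core subunits had 5 of 7 below 0 and a median of -0.17. The median SE of the log2 fold change was 0.14 over the members, against 0.21 over all genes tested. By complex it was 0.13 for complex I, 0.076 for complex II, 0.19 for complex III, 0.23 for complex IV and 0.14 for the ATP synthase. The members were not compared with genes of a like level.

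**Figure D4:**
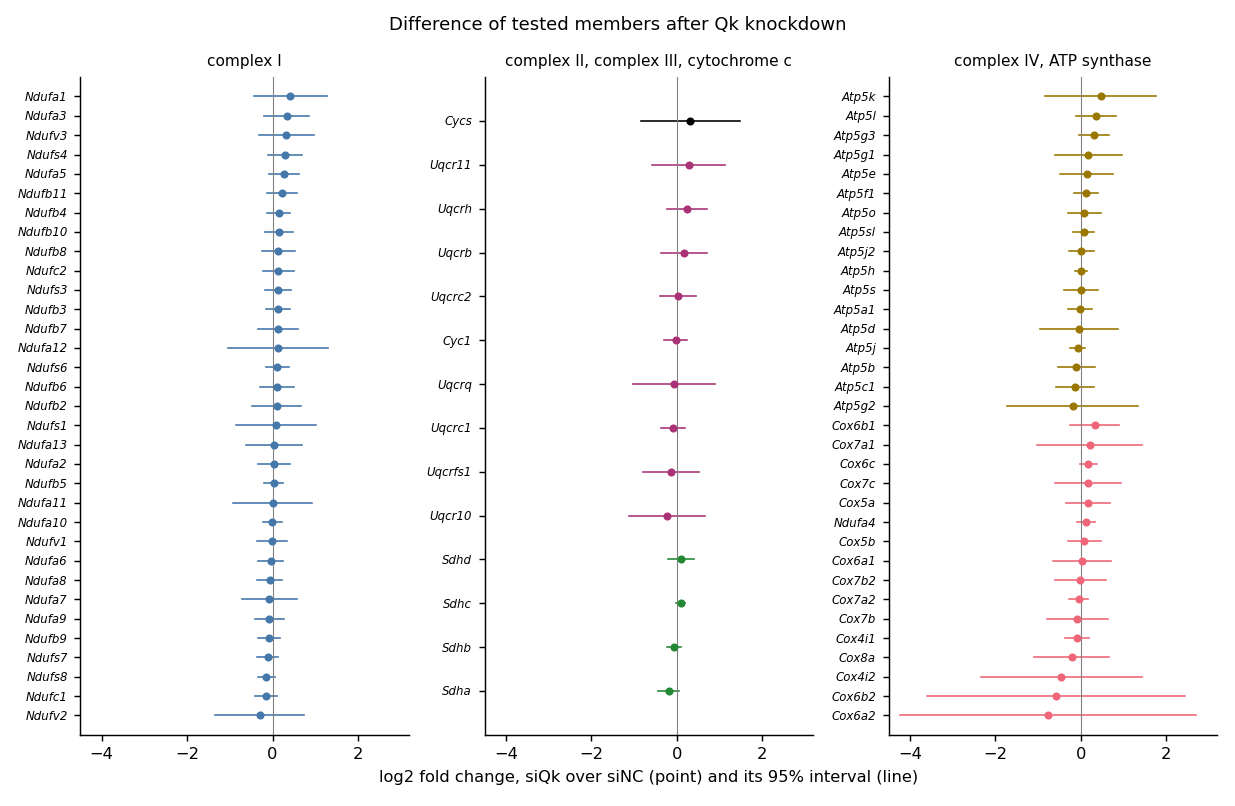
Log2 fold change of siQk over siNC (points) with its 95% interval (lines, from the spread of log2 CPM over the 6 libraries with 4 degrees of freedom) for 80 of the 81 members tested, by complex. Points lie between -0.78 for Cox6a2 and 0.47 for Atp5k, and the intervals are widest for Cox6a2 and Cox6b2.

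Atp5g3, Ndufs4, Cox6b1, Ndufa3 and Ndufa1 were among the 6 members with the smallest p. Their log2 fold changes were 0.31 ± 0.13 for Atp5g3, 0.29 ± 0.14 for Ndufs4, 0.33 ± 0.21 for Cox6b1, 0.34 ± 0.19 for Ndufa3 and 0.42 ± 0.31 for Ndufa1 (SE, n = 3 per group), each with an adjusted p of 0.9996 by edgeR. Without siNC replicate 3 the log2 fold changes were smaller, at 0.20 for Atp5g3, 0.18 for Ndufs4, 0.15 for Cox6b1, 0.18 for Ndufa3 and 0.17 for Ndufa1. Ndufs4, an accessory subunit near the NADH end, had 78.9, 80.8 and 57.7 RPKM in siNC and 88.5, 97.9 and 84.0 RPKM in siQk. Cox6b1, which faces the intermembrane space, had 571, 606 and 364 RPKM in siNC and 624, 684 and 647 RPKM in siQk. For both genes siQk lay above siNC, and siNC replicate 3 was well below the other siNC libraries. Ndufa3 had 161, 181 and 111 RPKM in siNC and 184, 196 and 200 RPKM in siQk. Ndufa1, a small membrane subunit, had 76.4, 80.02 and 39.4 RPKM in siNC and 84.5, 93.8 and 85.8 RPKM in siQk. The same library, siNC replicate 3, was again the lowest. For the level of any single member, the exact permutation test of 3 against 3 libraries cannot give a p below 0.1.

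The log2 CPM values of siNC and siQk did not overlap for 12 of the 81 members (14.8%), against 8.52% of all genes tested. Of these, 9 were higher in siQk (Atp5g3, Ndufs4, Cox6b1, Ndufa3, Ndufa1, Ndufa5, Ndufv3, Cox6c and Sdhc) and 3 lower, among them Sdha and Ndufs8. The direction of these counts moved with exon length. After the trend of each library on exon length was removed, 11 members did not overlap (13.6%, against 9.001% of all genes), of which 2 were higher and 9 lower, and the median log2 fold change of the members fell to 0.0044. Without siNC replicate 3 there were 9 higher and 14 lower (28.4%, against 22.9% of all genes), and the median log2 fold change of the members was -0.024. Without siQk replicate 2 there were 20 higher and 5 lower (30.9%, against 16.7% of all genes).

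siNC replicate 3 was the library in which the members stood lowest. Relative to each gene's mean over the 6 libraries, the median member was at -0.19 on the log2 scale there, against 0.067 and 0.056 in siNC replicates 1 and 2. In siQk replicates 1 to 3 the medians were 0.074, -0.028 and 0.13. siNC replicate 3 was the lowest of the 6 libraries for 40 of 81 members (49.4%), against 25.3% of all genes tested. The drop was greater in short genes. It was -0.30 for the 35 members with exon models under 600 bases, -0.13 for the 20 members of 600 or more but under 1000 bases and -0.037 for the 26 members of 1000 bases or more. All genes tested showed the same order in that library, with -0.27 for the 240 genes under 600 bases, -0.15 for 634 genes of 600 or more but under 1000 bases and 0.011 for 11791 longer ones. By complex the median in siNC replicate 3 was -0.25 for complex IV, -0.20 for complex I, -0.15 for complex III, -0.098 for the ATP synthase and -0.0050 for complex II, whose 4 genes all have exon models over 1000 bases. Atp5k, a small membrane subunit with an exon model of 292 bases, had 252, 298 and 102 RPKM in siNC and 307, 260 and 344 RPKM in siQk.

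**Figure D5:**
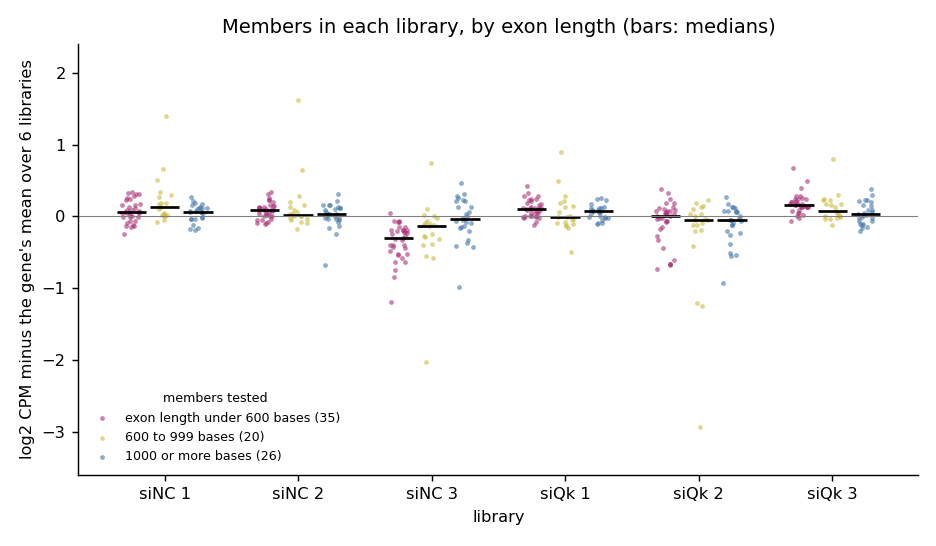
Log2 CPM of each tested member in each library minus that gene's mean over the 6 libraries (vertical axis), with members split by exon length (35 under 600, 20 from 600 to under 1000 and 26 of 1000 bases or more) and black bars for medians. The bars of siNC 3 step from -0.30 for the shortest members to -0.037 for the longest, and siQk 2 has single members below -1.

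siQk replicate 2 differed in another way. It was the lowest library for 23 of 81 members (28.4%), close to the 24.1% of all genes. Over all genes, siQk replicates 1 and 3 were the lowest for 8.39% and 7.75%. siQk replicate 2 was also the highest library for 14.8% of members and 26.1% of all genes. In it 12 members lay more than 0.5 below their mean on the log2 scale, against 0 in each of the other siQk libraries and 13 in siNC replicate 3. The share of all genes that far below their mean was not computed, so this count has no background. Cox6a2 had 47.1, 16.1 and 28.7 RPKM in siNC and 33.5, 2.32 and 18.9 RPKM in siQk, the widest spread of any member. Ndufv2 had 212, 223 and 232 RPKM in siNC and 222, 104 and 225 RPKM in siQk. Ndufa12, an accessory subunit of complex I, had 251, 188 and 155 RPKM in siNC and 269, 122 and 263 RPKM in siQk. For each of these genes the other siQk libraries lay within or above the range of siNC. Cox8a, with 679, 717 and 475 RPKM in siNC and 613, 364 and 653 RPKM in siQk, and Uqcr10, with 433, 471 and 305 RPKM in siNC and 397, 232 and 418 RPKM in siQk, followed the same pattern without rising above siNC. Unlike in siNC replicate 3, the drop did not follow length, the median being 0.0060 for members under 600 bases and -0.054 for those of 1000 bases or more. Ndufv2, Ndufa12, Uqcr10 and Cox8a were chosen for this paragraph after their values were seen.

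Next to Cox6a2, the members with the widest spread were Cox6b2, with 2.71, 6.83 and 0.454 RPKM in siNC and 2.46, 1.61 and 2.65 RPKM in siQk, and Cox4i2, with 4.32, 4.33 and 1.98 RPKM in siNC and 1.92, 1.16 and 4.75 RPKM in siQk. Their log2 fold changes were -0.78 ± 1.25 for Cox6a2, -0.58 ± 1.09 for Cox6b2 and -0.45 ± 0.68 for Cox4i2 (SE, n = 3 per group), and the groups overlapped for all of them. Single libraries set the size of these values. Cox6a2 was at -1.56 when siQk replicate 1 was left out, at -0.26 when siQk replicate 2 was, and at -0.34 when siNC replicate 1 was. Cox4i2 was at -0.27, -0.099 and -1.23 when siQk replicate 1, 2 or 3, in that order, was left out. It was at -0.29 when siNC replicate 1 was left out and at -0.73 when siNC replicate 3 was. Cox6b2 was at 0.45 without siNC replicate 2 and -1.08 without siNC replicate 3. The steadiest members were Sdhc, at 0.092 ± 0.035, Sdhb, at -0.068 ± 0.061, and Atp5h, a subunit of the peripheral stalk, at 0.010 ± 0.052 (SE, n = 3 per group). Atp5h had 360.5, 358 and 357 RPKM in siNC and 347, 390 and 366 RPKM in siQk.

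The rest of the pathway gave a like picture, with 0 genes called in each list by edgeR and 0 at an unadjusted p under 0.05, also by DESeq2 and the other edgeR tests. Of 47 assembly factors, which build the complexes without staying in them, 24 were above 0 and 23 below, with a median log2 fold change of 0.0011. Ndufaf2, an assembly factor of complex I, had the smallest p, with 36.7, 38.5 and 29.6 RPKM in siNC and 46.6, 45.7 and 40.6 RPKM in siQk and a log2 fold change of 0.32 ± 0.11 (SE, n = 3 per group). Pet100, an assembly factor of complex IV listed as 2900053A13Rik, followed at 0.39 ± 0.23. Of 16 regulators of mitochondrial gene expression, 15 were tested, with a median of 0.022, 8 above 0 and 7 below. Ppargc1a, the coactivator best known for driving mitochondrial biogenesis, was at 0.0390 RPKM or less in every library. Nrf1 had a mean of 4.74 RPKM and Gabpa, a member of the ETS family, 19.3 RPKM. The smallest p among the regulators was that of Slirp, which stabilises mitochondrial mRNA with Lrpprc and is listed as 1810035L17Rik, at 0.30 ± 0.088, followed by the nuclear receptor gene Esrra at -0.29 ± 0.16. Of 16 citric acid cycle and pyruvate dehydrogenase genes, 5 were above 0 and 11 below, with a median of -0.048, which turned to 11 above and 5 below, with a median of 0.030, without siNC replicate 3. Pdha1, at 0.33 ± 0.17, and Dld, at -0.28 ± 0.27, both of the pyruvate dehydrogenase complex, had the smallest p there. Of 8 further subunits and relatives outside the name rule, 5 were tested, with a median of 0.073, Cox7a2l being at -0.23 ± 0.19 and 2010107E04Rik at 0.12 ± 0.14.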

How the data were processed

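The authors selected poly-A RNA, sequenced pairs of 75-base reads, aligned them with OLego and quantified genes with Quantas; the submitters' processing notes name the mouse build mm10. The deposited files give, per gene, an expected count, the exon length and an RPKM value, and the authors' RPKM was rebuilt from the other columns within a relative tolerance of 1e-06. Expected counts were rounded, scaled by TMM (factors 0.956 to 1.02) and filtered at a mean log2 CPM above 0. The edgeR 4.0.16 quasi-likelihood test in R 4.3.3 compared siQk with siNC over 12665 genes with Benjamini-Hochberg adjustment. Standard errors and intervals come from the spread of log2 CPM (prior count 2) between libraries, not from that test, so an interval and a p can disagree. Members and lists were chosen with earlier results of these data known. Genes named with all values are the 6 smallest p, the highest and lowest tested of each complex, listed paralog pairs, Cycs, complex II and the 3 widest and 3 steadiest members; others named were chosen after their values were seen. The labels call the libraries biological replicates. Deviations of same-numbered libraries from their group means correlated at 0.21, 0.018 and -0.17, so numbers were not taken to pair libraries. Alternatives were other scalings, filters and tests (DESeq2 1.42.0), a replicate block, removal of length trends and leaving out each library. Scripts were tested on simulated data. Some values of a member and of a marker list are not reported here.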

Additional observations from a re-analysis of the deposited data

How the results depend on the processing

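Cox8b, Cox8c and Ndufs5 were too low in counts to be tested. No member was called under any of the 16 alternatives. Without siNC replicate 1, Qk lost its call (log2 fold change -3.09), and leaving out other libraries gave -3.19 to -2.67. Over all genes, 1 was called in the edgeR quasi-likelihood test, 5 in its exact test, 5 in its likelihood-ratio test and 19 with DESeq2. Members at an unadjusted p under 0.05 ranged from 0 to 1 when single libraries were left out, the 1 being Cox6b2 without siNC replicate 3 and Cox4i2 without siQk replicate 3. With the replicate block there was 1 (Cox6a2), and the median log2 fold change of members was 0.052; the numbers do not show a pairing. The members' median ran from -0.024 without siNC replicate 3 to 0.081 without siQk replicate 2. By complex, leaving out 1 library took the median as high as 0.13 for complex I, 0.024 for complex II and 0.049 for complex III. It reached 0.12 for complex IV and 0.073 for the ATP synthase. Alternatives chosen after seeing the data gave 23 members without overlap when siNC replicate 3 was left out and 25 when siQk replicate 2 was left out, with fewer libraries compared.

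Of 480 refits over 30 named members, 452 kept the direction and 28 reversed, in 14 members. Ndufa11 turned to -0.0019 with DESeq2 size factors, -0.0036 without a filter, -0.0018 with DESeq2, -0.019 with the replicate block and -0.0032 after removal of the length trend, which also turned Atp5h to -0.077 and Cox6a1 to -0.030 and moved complex II to -0.036. Cox7b2 turned to 0.012 with total counts. Leaving out single libraries gave 20 of the reversals: Atp5b ranged from -0.24 to 0.022, Atp5g1 from -0.024 to 0.40, Atp5g2 from -0.51 to 0.18, Atp5h from -0.034 to 0.049, Cox6a1 from -0.17 to 0.19, Cox6b2 from -1.08 to 0.45, Cox7a1 from -0.15 to 0.48, Cox7a2 from -0.10 to 0.015, Cox7b from -0.23 to 0.11, Cox7b2 from -0.14 to 0.17, Cox8a from -0.38 to 0.0044, Ndufa11 from -0.16 to 0.22, Uqcrfs1 from -0.31 to 0.049 and Uqcrq from -0.22 to 0.19. The causes were not tested.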
